A study of Homo sapiens with 10 samples.

Results

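A panel of 9 genes that pathologists and biologists use to recognise neuroendocrine prostate cancer were followed across 5 untreated prostate cancer cell lines. The genes were SYP, CHGA, CHGB, ENO2, NCAM1, INSM1, SCG2, SOX2 and ONECUT2. They were taken as a named list, and all 9 were found among the 60642 genes of the deposited table. The lines were LNCaP (the FGC clone), DUCAP, VCAP, DU145 and PC3, and each had 2 biological repeats, which gave 10 samples. All were human lines kept in phenol-red free RPMI with fetal bovine serum, at 5 to 10% in the labels, and no line had been treated or genetically altered for the experiment. LNCaP came from a lymph node metastasis, DU145 from a brain metastasis and PC3 from a bone metastasis. DUCAP and VCAP were derived from different metastases of the same patient, so they are not independent examples of prostate cancer. LNCaP, DUCAP and VCAP are androgen-responsive lines, whereas DU145 and PC3 grow without androgen signalling. No normal prostate and no neuroendocrine line was among the samples, so the values show how the 5 lines differ from each other.

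Neuroendocrine cells are scattered through the normal prostate epithelium and release peptides and amines on demand. They store peptides in dense-core vesicles, whose matrix is formed by the granins (CHGA, CHGB and SCG2), and they also carry small clear vesicles with SYP in the membrane. Transcription factors such as INSM1 turn this secretory programme on, and the repressor REST keeps it off in most other cells by silencing neuronal genes. Prostate cancers that escape androgen-directed therapy can acquire the programme, and for this reason the 9 genes are used as a panel. A panel can be read as a single score, but its members do different things, from vesicle storage (granins, SYP) to adhesion (NCAM1), glycolysis (ENO2) and transcription (INSM1, SOX2, ONECUT2).

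Expression was given as TPM, the share of a gene's transcripts in a sample after correction for gene length, scaled to a fixed total. Sums of the deposited TPM lay between 982880 and 991998 per sample. Mitochondrial genes took between 12.7% (PC3) and 36.0% (VCAP) of the TPM, and they took at least 32.1% in each DUCAP and VCAP sample against at most 22.5% in the other lines. A difference of 2-fold or more between repeats was found for 158 to 372 tested genes in LNCaP, DUCAP, VCAP and PC3, against 1661 in DU145, so DU145 values were the least precise. The sequencing depth cannot be read from TPM and is unknown here. Tests used log2(TPM + 1), a scale on which a difference of 1 is 2-fold for high genes and which understates the change of low ones. A total of 17520 genes reached 1 TPM in at least 2 samples and were tested with limma, with Benjamini-Hochberg adjustment over all of them and a threshold of 0.05. These p-values rest on the spread between the 2 repeats of each line and therefore speak of these lines alone. Bulk RNA cannot separate fewer cells of a type from less RNA per cell.

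The promoters of 3 markers are shown because these genes had 3 different patterns below: CHGA was nearly restricted to VCAP, SYP was graded over the lines, and ENO2 was highest in PC3. Each sequence covers the 250 bases directly upstream of the RefSeq start site (GRCh38.p14) and is written 5′ to 3′ on the strand of the gene. Positions are counted backwards from the start site, with −1 as the last base shown. Capitals mark the cAMP response element TGACGTCA in CHGA, and the GC box GGGCGG or its reverse complement in SYP and ENO2.
CHGA, chr14:92922900-92923149, plus strand: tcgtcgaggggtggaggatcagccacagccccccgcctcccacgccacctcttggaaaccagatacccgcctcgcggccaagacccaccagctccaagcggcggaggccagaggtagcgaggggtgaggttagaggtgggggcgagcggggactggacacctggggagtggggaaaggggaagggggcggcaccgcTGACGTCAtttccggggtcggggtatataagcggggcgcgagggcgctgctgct
SYP, chrX:49200194-49200443, minus strand: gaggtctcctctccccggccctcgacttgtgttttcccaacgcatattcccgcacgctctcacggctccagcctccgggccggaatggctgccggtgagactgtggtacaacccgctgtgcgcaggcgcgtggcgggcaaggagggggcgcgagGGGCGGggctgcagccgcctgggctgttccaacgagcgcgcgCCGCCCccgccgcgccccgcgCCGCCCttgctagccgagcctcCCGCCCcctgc
ENO2, chr12:6914330-6914579, plus strand: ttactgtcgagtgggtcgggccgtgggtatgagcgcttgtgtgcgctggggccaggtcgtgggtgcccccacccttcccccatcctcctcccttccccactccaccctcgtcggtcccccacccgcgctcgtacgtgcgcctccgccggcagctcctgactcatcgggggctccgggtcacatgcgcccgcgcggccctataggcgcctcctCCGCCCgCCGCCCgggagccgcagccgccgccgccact
The CHGA window lies inside the RefSeq gene record, which opens at 92922664, because the promoter table uses a later start site. The CHGA element began at −54. It is a known binding sequence of the CREB family, and 1.65% of the 35116 RefSeq promoter entries held these 8 letters in a window of the same length, on either strand. SYP had GC boxes at −96, −54, −33 and −11, and ENO2 had them at −38 and −31. CHGA held a GC box at −66, which is left in lower case. GC boxes were common, being found in 42.6% of all windows. Both strands of the windows of CHGA, SYP, ENO2, ONECUT2 and SOX2 were also searched for TTCAGCACC and GGACAGCG, the left and the right part of the RE1 element to which REST binds. These letters were in none of the 5 windows, and in 0.288% and 1.26% of all windows, which says nothing of sites elsewhere in the genes.

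The granins separated VCAP from every other line. CHGA (chr14:92922664-92935285), the precursor of pancreastatin and a serum marker of neuroendocrine tumours, was at 29.6 and 28.1 TPM in VCAP and at 0.91 and 0.80 TPM in DUCAP. It was listed at 0 in both LNCaP samples and was at 0 to 0.16 TPM in DU145 and 0 to 0.06 TPM in PC3. All VCAP values were thus far above those of the other lines, and both DUCAP values lay above the remaining 6 samples. VCAP exceeded DUCAP by 4.01 on the log2 scale (SE 0.13, limma adjusted p = 1.5e-06), and DUCAP exceeded the next line, DU145, by 0.78 (adjusted p = 8.2e-04, limma). DU145, PC3 and LNCaP differed from their neighbours in this order by 0.07 and 0.04, which did not pass the test (limma adjusted p = 0.72 and 0.81).

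CHGB (chr20:5911510-5925353), another acidic protein of the granule matrix, had the same order at the top. It was at 33.8 and 39.3 TPM in VCAP and at 0.46 and 0.56 TPM in DUCAP. LNCaP had 0.02 and 0 TPM, and CHGB was listed at 0 in both repeats of DU145 and of PC3. The 5 lines therefore fell into a high line, a low line and 3 lines at or near 0. VCAP minus DUCAP was 4.63 on the log2 scale (SE 0.13, limma adjusted p = 8.5e-07), the largest difference between neighbouring lines for any member. DUCAP minus LNCaP was 0.58 (limma adjusted p = 0.0043).

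SCG2 (chr2:223596940-223602361), the precursor of secretoneurin, was lower but ordered alike at the top. Its level was 3.92 and 5.75 TPM in VCAP, 0.41 and 0.57 TPM in DUCAP, and 0.19 and 0.40 TPM in PC3. LNCaP had 0.12 TPM in both repeats, and DU145 had 0 and 0.09 TPM. VCAP stood apart, while the other lines formed a shallow gradient below 1 TPM. VCAP exceeded DUCAP by 1.95 (SE 0.17, limma adjusted p = 1.9e-04). The later steps of 0.21, 0.20 and 0.10 between neighbouring lines did not pass, whereas DUCAP against DU145, the ends of that gradient, did, with a difference of 0.51 (limma adjusted p = 0.027). In TPM, the VCAP mean was 33.7 times the DUCAP mean for CHGA, 71.6 times for CHGB and 9.87 times for SCG2. DUCAP granin levels were below 1 TPM, so these ratios have a small denominator.

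**Figure D1:**
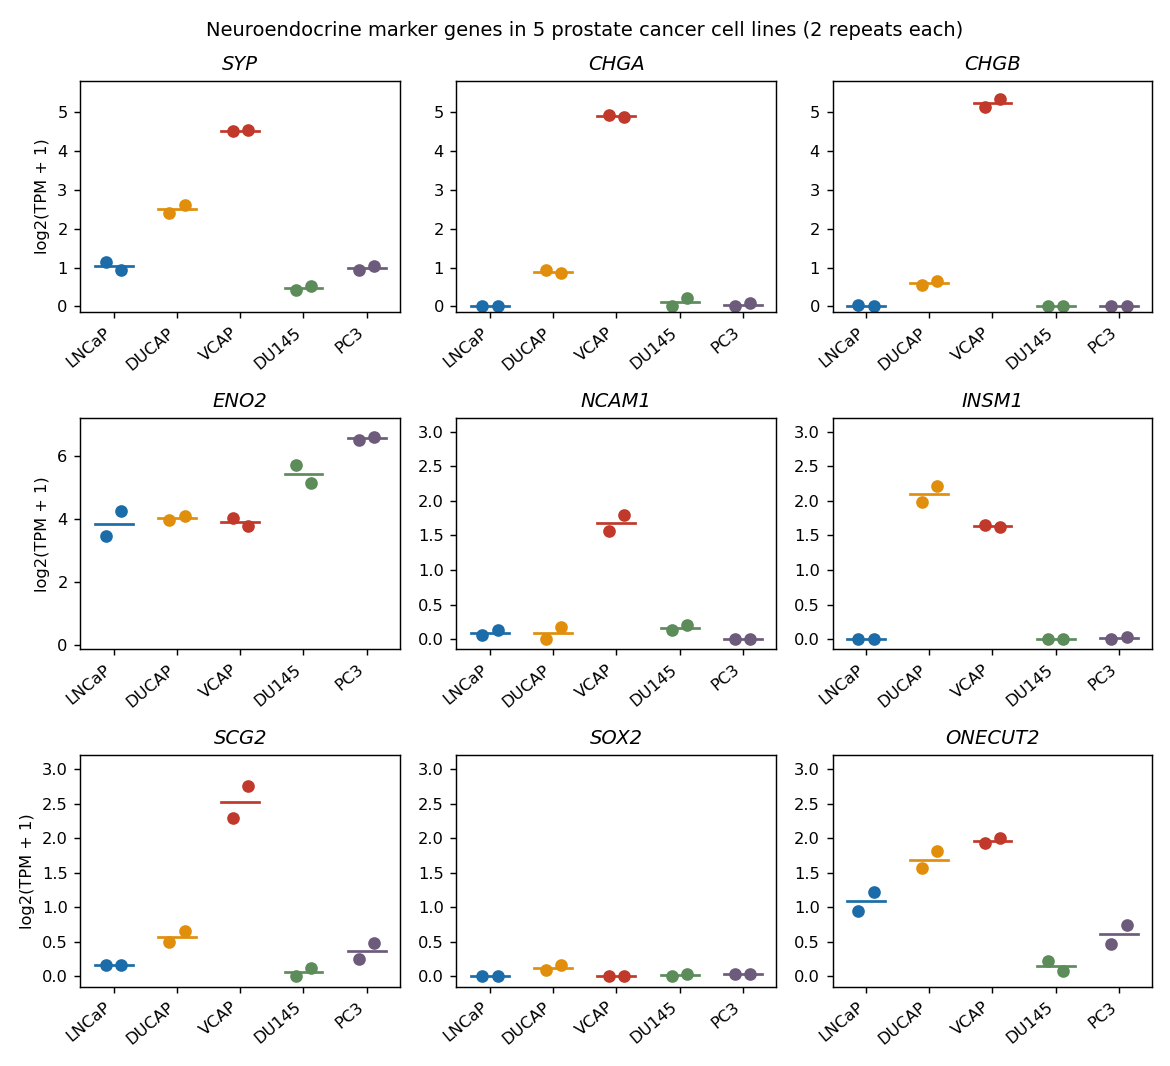
Levels of the 9 neuroendocrine marker genes in each of the 10 samples, as log2(TPM + 1), 1 panel per gene with vertical axes that differ between panels. Points are the 2 repeats of each line and the short bars their means. VCAP lies highest for CHGA, CHGB, SCG2, SYP, NCAM1 and ONECUT2, DUCAP for INSM1 and SOX2 (at most 0.12 TPM), and PC3 for ENO2.

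SYP (chrX:49187815-49200193) encodes synaptophysin, a membrane protein of small clear vesicles and the most widely used stain for neuroendocrine differentiation. It was at 21.7 and 22.1 TPM in VCAP, 4.32 and 5.13 TPM in DUCAP, and 1.19 and 0.92 TPM in LNCaP. PC3 had 0.91 and 1.07 TPM and DU145 had 0.34 and 0.43 TPM. SYP was measured in all 10 samples, unlike the granins, and its levels formed a graded series with no line at 0. VCAP exceeded DUCAP by 2.00 (SE 0.15, limma adjusted p = 9.1e-05), DUCAP exceeded LNCaP by 1.48 (limma adjusted p = 6.7e-05), and PC3 exceeded DU145 by 0.52 (limma adjusted p = 0.021). LNCaP and PC3 overlapped and differed by 0.04 (limma adjusted p = 0.83). Of the 10 pairs of lines, 9 passed for SYP. The step from PC3 to DU145 was lost without DU145 repeat 1 (limma adjusted p = 0.056) and without either PC3 repeat (limma adjusted p = 0.06 and 0.12).

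NCAM1 (chr11:112961420-113278436) encodes the adhesion molecule CD56, which neural and natural killer cells also carry. It reached 1.97 and 2.46 TPM in VCAP. The other 8 samples lay between 0 and 0.15 TPM, with 0 in DUCAP repeat 1 and in both PC3 repeats. VCAP exceeded the next line, DU145, by 1.52 (SE 0.12, limma adjusted p = 1.1e-05), and it exceeded DUCAP by 1.59 (limma adjusted p = 8.5e-05). All 4 pairs that passed for NCAM1 involved VCAP, but NCAM1 reached 1 TPM in VCAP alone and was tested only through it, so the filter favoured this outcome. Its paralogue NCAM2, also an adhesion molecule, had another pattern, with 150 and 197 TPM in LNCaP and at most 1.44 TPM elsewhere.

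INSM1 (chr20:20368104-20370949), a zinc-finger repressor needed for the maturation of endocrine cells, did not follow the granins. It was at 2.97 and 3.63 TPM in DUCAP and at 2.13 and 2.09 TPM in VCAP. It was listed at 0 in LNCaP and DU145, and PC3 had 0 and 0.02 TPM. INSM1 was thus measured in the DUCAP and VCAP pair only, beyond 1 PC3 value at 0.02 TPM, and the DUCAP values were the higher ones. DUCAP minus VCAP was 0.46 (SE 0.12, limma adjusted p = 0.028), but this call was lost in 11 of 20 other ways of processing or of leaving out a sample, for example without DUCAP repeat 2 (0.35, limma adjusted p = 0.15). VCAP exceeded PC3 by 1.62 (limma adjusted p = 5.7e-06), and this step never lost its call. In TPM, the VCAP mean of INSM1 was 0.639 times the DUCAP mean, whereas the granins had ratios far above 1.

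ONECUT2 (chr18:57435374-57491298), a homeodomain factor of liver, pancreas and neurons, was measured in all 10 samples at low levels. VCAP had 2.79 and 3.01 TPM, DUCAP 1.95 and 2.50 TPM, LNCaP 0.93 and 1.33 TPM, PC3 0.38 and 0.68 TPM, and DU145 0.16 and 0.05 TPM. No line overlapped with its neighbour, so the order was VCAP, DUCAP, LNCaP, PC3 and DU145. VCAP and DUCAP differed by 0.28, which did not pass (SE 0.17, limma adjusted p = 0.30). The lower steps of 0.60, 0.48 and 0.46 did (limma adjusted p = 0.013, 0.036 and 0.047). Each of these 3 steps depended on single samples and on the processing. DUCAP minus LNCaP lost its call without DUCAP repeat 2 (0.48) or LNCaP repeat 1 (0.46), and with a pseudocount of 0.1 (limma adjusted p = 0.06). LNCaP minus PC3 lost its call without LNCaP repeat 2 or PC3 repeat 1 (0.34 for both). It also lost it with a pseudocount of 0.1 (limma adjusted p = 0.052) and with no filter on low values (limma adjusted p = 0.077). PC3 minus DU145 was lost in 16 of the 20 alternatives.

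SOX2 (chr3:181711925-181714436), a pluripotency factor linked to lineage plasticity, was near 0 throughout. Its highest values were 0.06 and 0.12 TPM, in DUCAP. PC3 had 0.02 TPM in both repeats, DU145 had 0 and 0.02 TPM, and LNCaP and VCAP were listed at 0. SOX2 did not reach 1 TPM in any sample and was not tested. With no filter on low values the difference across lines passed (limma adjusted p = 0.031), at levels of at most 0.12 TPM. SOX2-OT, the long non-coding RNA whose gene spans SOX2, did not reach 1 TPM in any sample either.

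ENO2 (chr12:6914580-6923697) encodes the gamma subunit of the glycolytic enzyme enolase, known to pathologists as neuron-specific enolase, and its order over the lines was another one. It was at 90.7 and 95.6 TPM in PC3 and 51.6 and 34.2 TPM in DU145. LNCaP had 9.96 and 17.9 TPM, DUCAP 14.5 and 16.1 TPM, and VCAP 15.2 and 12.7 TPM. Every PC3 and DU145 sample lay above the other 6, and LNCaP, DUCAP and VCAP overlapped. PC3 exceeded DU145 by 1.13 (SE 0.28, limma adjusted p = 0.0099) and DU145 exceeded DUCAP by 1.40 (limma adjusted p = 0.0021). DUCAP, VCAP and LNCaP differed by 0.13 and 0.05 from their neighbours (limma adjusted p = 0.85 and 0.90). The step from DU145 to DUCAP was no longer called after median-ratio scaling (0.65, limma adjusted p = 0.069) or quantile normalization (0.62, limma adjusted p = 0.091), and that from PC3 to DU145 was lost without PC3 repeat 2 (1.09, limma adjusted p = 0.056).

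The other enolases put the ENO2 level in context. ENO1, the ubiquitous alpha subunit, was at 2496 and 2506 TPM in PC3 and 2262 and 2713 TPM in DU145, against 953 and 934 TPM in LNCaP, 453 and 524 TPM in DUCAP, and 460 and 470 TPM in VCAP. ENO1 was therefore also highest in PC3 and DU145 (limma adjusted p across the lines = 8.8e-07). ENO3, the beta subunit of muscle, lay between 2.38 and 16.7 TPM. As a share of the TPM of the 3 genes, ENO2 was 3.59% ± 0.119 in PC3, 3.01% ± 0.0799 in DUCAP, 2.86% ± 0.382 in VCAP, 1.73% ± 0.690 in DU145 and 1.43% ± 0.585 in LNCaP (SD, n = 2 each). On this scale DU145 no longer stood with PC3. Its samples had 2.22 and 1.24%, below every DUCAP, VCAP and PC3 sample, and they overlapped with LNCaP at 1.02 and 1.85%. No test was run on these shares.

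**Figure D2:**
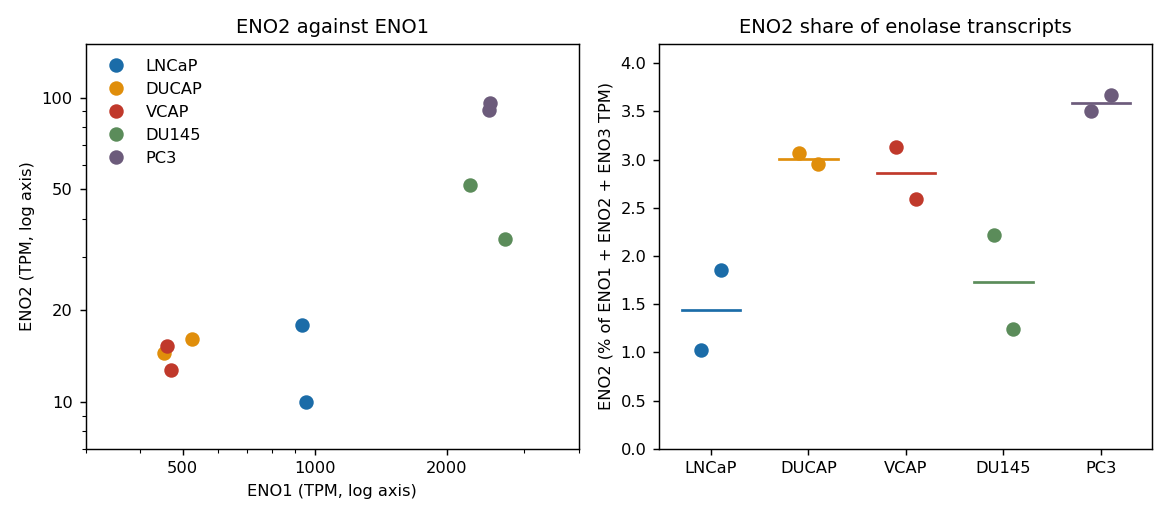
Left, ENO2 against ENO1 in TPM on log axes, 1 point per sample. Right, ENO2 as a percentage of the TPM of ENO1, ENO2 and ENO3, with the 2 repeats as points and their mean as a bar. PC3 and DU145 are high for both genes, but the ENO2 share in DU145 (2.22 and 1.24%) lies below that in DUCAP, VCAP and PC3.

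Of the 9 markers, 8 passed the filter, and all 8 differed across the 5 lines (limma adjusted p between 5.3e-08 and 7.0e-05). This count has to be read against a background of 90.8% of all tested genes. Moreover, CHGA, CHGB, NCAM1 and SCG2 reached 1 TPM in VCAP alone and INSM1 in DUCAP and VCAP alone, so these 5 had to differ in order to be tested at all. Among the called members, 6 had their highest mean in VCAP, 1 in DUCAP (INSM1) and 1 in PC3 (ENO2). Of all tested genes, 10.6% were called and highest in VCAP, 4.65% in DUCAP, 27.5% in PC3, 24.6% in LNCaP and 23.5% in DU145. No member was highest in LNCaP or DU145.

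Counts over pairs of lines were read in the same way. Between VCAP and DUCAP, where 18.3% of all tested genes were called, 6 of the 8 members passed, 5 higher in VCAP (SYP, CHGA, CHGB, NCAM1 and SCG2) and INSM1 higher in DUCAP. For single directions the background was 14% higher in VCAP and 4.24% higher in DUCAP. CHGA, CHGB, NCAM1 and SCG2 entered the test only because VCAP was high, so of these 6 calls only those of SYP and INSM1 can be read against it. VCAP differed from LNCaP in 7 members (background 60.1%), all of them higher in VCAP. Against DU145 (65.4%) and PC3 (67.6%) VCAP differed in all 8, of which 7 were higher in VCAP and ENO2 was lower. DUCAP differed from LNCaP in 5 members (60.7%), all higher in DUCAP. It differed from DU145 in 7 (66.6%) and from PC3 in 6 (67.8%), with ENO2 the lower one in DUCAP each time. The filter favoured these VCAP counts in the same way, and also the INSM1 calls of DUCAP, since INSM1 was tested only through DUCAP and VCAP. These counts are therefore given as a description. Among the remaining lines, 3 members were called between LNCaP and DU145 (55.9%), 2 between LNCaP and PC3 (57.7%) and 3 between DU145 and PC3 (49.3%). LNCaP and DU145 differed in SYP, ENO2 and ONECUT2, and LNCaP and PC3 in ENO2 and ONECUT2. No CHGA, CHGB, SCG2, NCAM1 or INSM1 difference passed among these lines, but these genes were below 1 TPM in every LNCaP, DU145 and PC3 sample. The filter let them in through other lines and left little room to differ here, so these counts cannot be read against the backgrounds. The median member difference, LNCaP minus DU145, was 0.01, beside −0.01 for all tested genes.

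**Figure D3:**
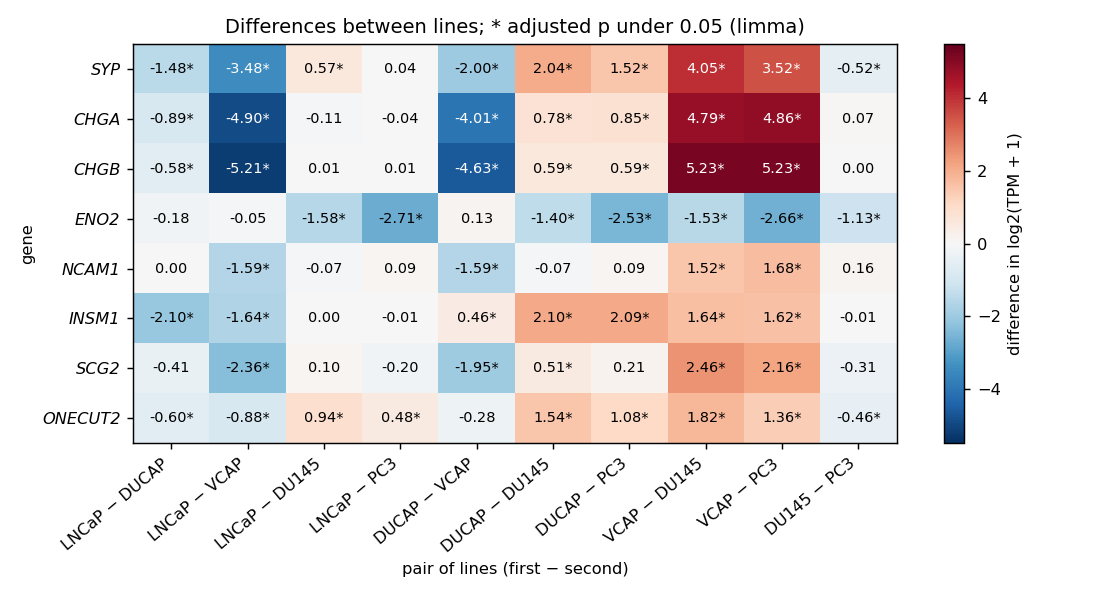
Differences in log2(TPM + 1) for the 8 tested markers over the 10 pairs of lines, the first line minus the second, with an asterisk on each called difference. The pairs with VCAP hold the large differences of CHGA, CHGB and SYP, and the called differences of ENO2 from DU145 and PC3 are negative for LNCaP, DUCAP and VCAP, while the other markers' called differences in those pairs are positive.

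The contrast of LNCaP, DUCAP and VCAP with DU145 and PC3 asks whether the panel follows the split between androgen-responsive lines and the others. It was called for all 8 tested members, where 74.4% of all tested genes were called. Of these, 7 were higher in the first group (background 22.5%) and ENO2 was lower (background 51.9%). The median over the members was 1.22, beside −0.40 over all tested genes. The filter favoured this count and median, since CHGA, CHGB, NCAM1, SCG2 and INSM1 were tested only through VCAP or DUCAP, lines of the first group, and they are given as a description. However, the ranges of the groups overlapped for all but ENO2 and ONECUT2, that is for 2 members, where 26.7% of all tested genes did not overlap. ENO2 ranged from 9.96 to 17.9 TPM with a median of 14.9 in the 6 samples of the first group, and was at 34.2 to 95.6 TPM in the 4 of the second. The difference was −2.07 (SE 0.18, limma adjusted p = 1.2e-05). ONECUT2 ranged from 0.93 to 3.01 TPM with a median of 2.23 TPM in the first group, against 0.05 to 0.68 TPM, a difference of 1.20 (SE 0.11, limma adjusted p = 1.4e-05).

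How far the group means of the other members rested on VCAP varied. SYP differed by 1.96 and by 1.04 when both VCAP samples were left out of the contrast. CHGA went from 1.86 to 0.37, CHGB from 1.94 to 0.30, and INSM1 from 1.24 to 1.04. NCAM1 went from 0.54 to 0.01 and SCG2 from 0.87 to 0.15, and neither was called without VCAP (limma adjusted p = 0.92 and 0.14). This left 6 of 8 members called, where 69.8% of all tested genes were called. For CHGA, CHGB and INSM1 the remaining difference lay in DUCAP, the line from the same patient as VCAP. LNCaP differed from DU145 and from PC3 by only −0.11 to 0.01 in these genes, and no such difference was called. In SYP, LNCaP exceeded DU145 by 0.57 (limma adjusted p = 0.013) but PC3 by only 0.04 (limma adjusted p = 0.83). ENO2 and ONECUT2 moved little, to −2.06 and 1.01. The contrast without VCAP was chosen after the data had been seen.

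The wider dense-core vesicle machinery was compared with the markers next. Of 18 genes for granins, prohormone processing, vesicle priming and amine loading, 15 were tested and all differed across lines (background 90.8%), 8 of them highest in VCAP (10.6%). The list shares CHGA, CHGB and SCG2 with the panel, and 5 of its genes reached 1 TPM in VCAP alone. Between VCAP and DUCAP, 11 of the 15 were called higher in VCAP (14%) and 1 was lower, SCG5 (4.24%). The median difference was 1.27, beside 0.12 over all tested genes. The 5 genes tested only through VCAP favoured the VCAP counts and this median, which are therefore given as a description. SCG3, a granin that helps to sort cargo into granules, was at 19.0 and 23.8 TPM in VCAP, 2.75 and 3.23 TPM in DUCAP and at most 0.06 TPM elsewhere. CADPS, which primes dense-core vesicles for release, was at 28.5 and 28.0 TPM in VCAP and 1.10 and 2.25 TPM in DUCAP. SCG3 and CADPS were picked after their values were seen.

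Several genes of the same list had their highest levels in lines where the granins were near 0. DDC, the decarboxylase that makes dopamine and serotonin, was at 169 and 217 TPM in LNCaP, 20.9 and 21.4 TPM in DUCAP, 32.4 and 44.4 TPM in VCAP, and at most 0.29 TPM in DU145 and PC3. PAM, which amidates peptide hormones, was at 153 and 101 TPM in DU145 and 109 and 117 TPM in PC3, against at most 6.10 TPM in the other lines. CPE, which trims prohormones, was highest in LNCaP with 56.9 and 63.9 TPM. PCSK1N, an inhibitor of a prohormone convertase, was highest in PC3 with 36.2 and 38.6 TPM. The convertase genes themselves were not raised anywhere: PCSK1 was at most 0.05 TPM and PCSK2 was listed at 0 in all samples. In the group contrast 10 list genes were higher (22.5%) and 3 lower (51.9%) in LNCaP, DUCAP and VCAP, with a median of 0.53.

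**Figure D4:**
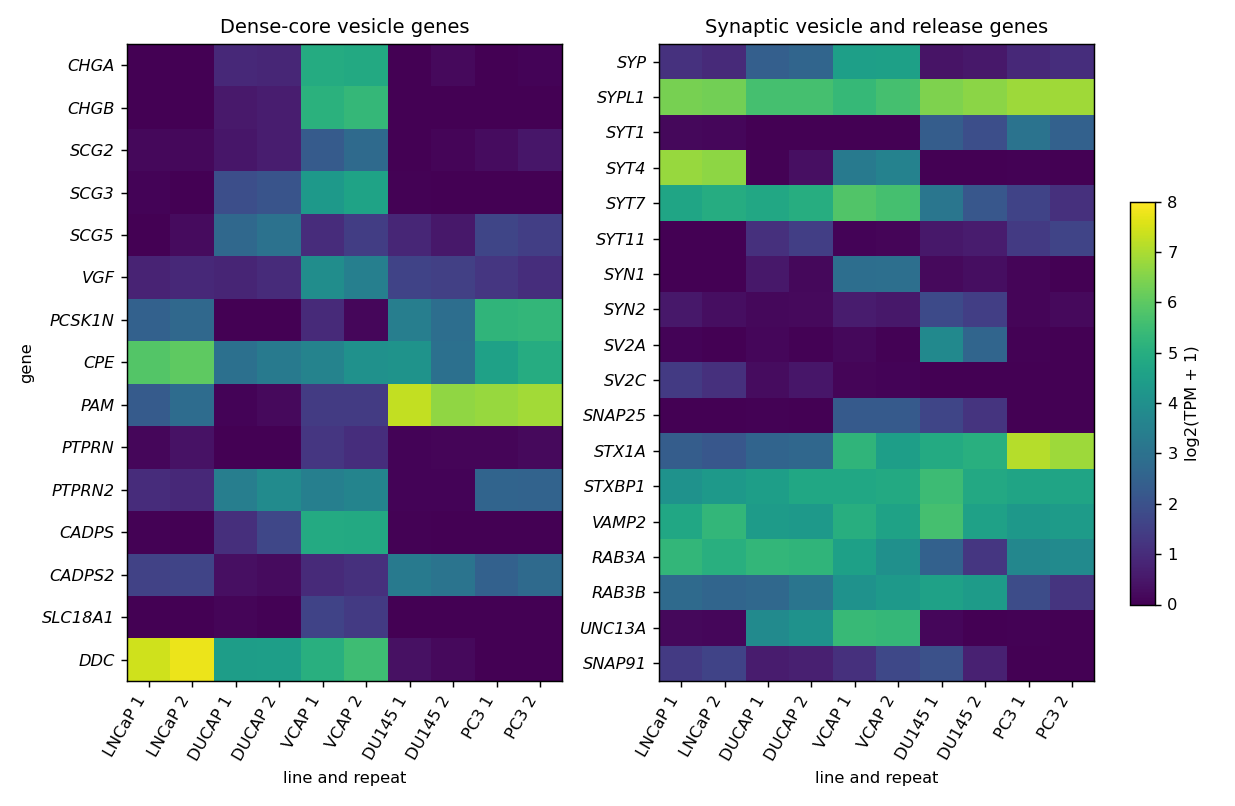
Heat maps of log2(TPM + 1) for the dense-core vesicle list and the list of synaptic vesicles and release, with the tested genes from top to bottom and the 10 samples from left to right. The granins, SCG3 and CADPS are brightest in VCAP, DDC and CPE in LNCaP, and PAM in DU145 and PC3.

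The genes of synaptic vesicles and of release had their highest levels spread over all 5 lines. Of 21 genes, 18 were tested and 17 differed across lines (background 90.8%), with 5 highest in VCAP, 4 each in DU145 and PC3, 3 in LNCaP and 1 in DUCAP (backgrounds 10.6, 23.5, 27.5, 24.6 and 4.65%). Between VCAP and DUCAP, 7 were higher in VCAP (14%) and 1 lower (4.24%), with a median of 0.62. Of the list genes, 1 reached 1 TPM in VCAP alone. SYT4, a calcium-sensor relative on vesicles, was at 107 and 98.2 TPM in LNCaP, 8.55 and 10.8 TPM in VCAP and at most 0.26 TPM elsewhere. SYT7, a slow calcium sensor, was highest in VCAP with 56.1 and 48.4 TPM. STX1A, a membrane fusion protein, was highest in PC3 with 138 and 114 TPM, and SYPL1, the ubiquitous relative of SYP, lay between 40.2 and 114 TPM and was also highest in PC3. SYP was thus highest in VCAP, while its relative SYPL1 was at 40.2 and 48.5 TPM there, below all other samples, although the difference from DUCAP did not pass (limma adjusted p = 0.49). In the group contrast 7 list genes were higher and 7 lower, where 22.5% and 51.9% of all tested genes were.

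Many neuroendocrine transcription factors were hardly expressed. Of 30 listed, including INSM1, ONECUT2 and SOX2, 15 did not reach 1 TPM in any sample, and 4 of these were at 0 everywhere. NEUROD1, which marks a subtype of neuroendocrine tumours, was listed at 0 in all 10 samples. All 14 tested factors differed across lines (background 90.8%), with 5 highest in VCAP, 4 in PC3, 2 each in LNCaP and DUCAP, and 1 in DU145. In the group contrast 9 were higher and 5 lower (backgrounds 22.5% and 51.9%), and between VCAP and DUCAP 2 were called in each direction (14% and 4.24%). Of the tested factors, 1 reached 1 TPM in VCAP alone. Called genes with their highest mean in VCAP made up 10.6% of all tested genes.

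The factors with the highest levels peaked in different lines. NKX2-1, a lung and thyroid factor, was at 67.2 and 40.6 TPM in DU145 and at most 0.64 TPM elsewhere. FOXA2, an endoderm factor, was at 36.7 and 32.1 TPM in PC3 and at most 0.76 TPM elsewhere. HES6, which antagonises the Notch target HES1, was at 62.9 and 61.7 TPM in LNCaP and at most 6.50 TPM elsewhere. RFX6, an endocrine pancreas factor, was highest in DUCAP with 11.77 and 12.04 TPM, followed by VCAP with 4.70 and 3.85 TPM, and like INSM1 it was higher in DUCAP than in VCAP. Thus the lines with high FOXA2, NKX2-1 or HES6 were not the line with high granins.

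REST, the repressor of neuronal genes, was expressed in every line. It was at 11.6 and 13.1 TPM in LNCaP, 4.96 and 7.86 TPM in DUCAP, 6.67 and 5.96 TPM in VCAP, 12.7 and 10.9 TPM in DU145, and 10.96 and 10.19 TPM in PC3. The 4 DUCAP and VCAP samples lay below the other 6. The difference across lines was called (limma adjusted p = 0.0059), but not after median-ratio scaling (0.37) or quantile normalization (0.25), and it stayed barely below the threshold after rescaling without mitochondrial genes (limma adjusted p = 0.049). DUCAP and VCAP, which differed in the granins, overlapped in REST, with a log2 difference of 0.01 for VCAP minus DUCAP (SE 0.21, limma adjusted p = 1.0). Mitochondrial genes took their largest shares of TPM in the same 4 samples, 32.1 to 36.0%.

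SRRM4, a splicing factor of neurons that acts on REST transcripts, followed the granins instead. It was at 3.92 and 3.57 TPM in VCAP, and no sample of another line had more than 0.01 TPM, with 2.24 for VCAP minus DUCAP (SE 0.10, limma adjusted p = 6.4e-06). SRRM4 was tested only because VCAP was high, so this call and its part in the counts below were favoured by the filter. Its relative SRRM3, named after its values were seen, was at 9.71 and 7.61 TPM in VCAP. SRRM3 was also at 7.31 and 2.68 TPM in DU145, where CHGA, CHGB and SCG2 were at most 0.16 TPM. RCOR1, a scaffold of the REST complex, was highest in DU145 at 24.4 and 27.9 TPM (limma adjusted p = 0.0071), and RCOR2 did not pass (limma adjusted p = 0.25). In total, 11 of 13 genes for REST, its partners and splicing regulators differed across lines (background 90.8%), 2 were higher (22.5%) and 4 lower (51.9%) in the group contrast, and 3 were higher in VCAP than in DUCAP (14%). Gene-level TPM do not show which REST isoform was made.

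**Figure D5:**
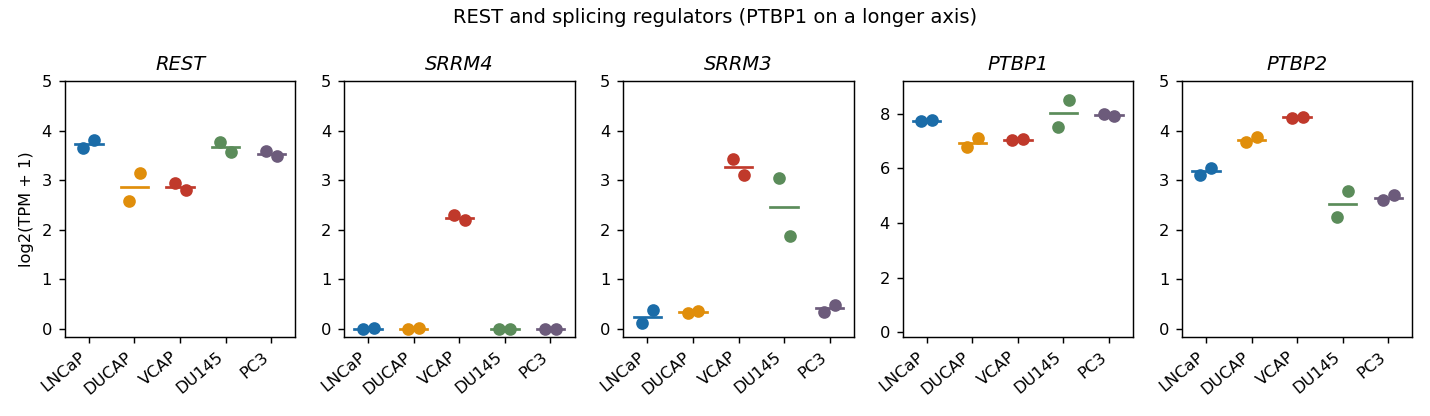
Levels of REST and the splicing regulators SRRM4, SRRM3, PTBP1 and PTBP2 in the 10 samples, as log2(TPM + 1), with points for the 2 repeats of each line, bars for their means and a longer axis for PTBP1. REST is lowest in DUCAP and VCAP (4.96 to 7.86 TPM), and SRRM4 is above 0.01 TPM in VCAP alone.

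Neuronal genes outside vesicles were compared as a further list. Of 24 genes of the cytosol, cytoskeleton and cell surface, among them ENO2 and NCAM1, 15 were tested and all differed (background 90.8%), with 7 highest in VCAP (10.6%) and 3 each in DUCAP (4.65%) and PC3 (27.5%). Of these genes, 3 reached 1 TPM in VCAP alone. Between VCAP and DUCAP 8 were higher in VCAP (14%) and 3 lower (4.24%), with a median of 1.32. The genes tested only through VCAP favoured the VCAP counts and this median, which are therefore given as a description. UCHL1, the neuronal deubiquitinase PGP9.5, was at 793 and 1324 TPM in DU145, 14.3 and 19.0 TPM in VCAP and at most 9.19 TPM elsewhere. NEFL, the light neurofilament, was at 172 and 220 TPM in PC3 and 13.6 and 14.8 TPM in VCAP. TUBB3, the neuronal tubulin, was at 90.2 and 166 TPM in DU145 and 124 and 138 TPM in PC3, against at most 16.9 TPM in the other lines. UCHL1 and TUBB3, like ENO2, are therefore neuronal markers whose highest values fell in the lines with little granin.

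Peptides and their receptors were mostly low. Of 25 genes, 12 were tested and 11 differed (background 90.8%), 7 of them highest in PC3 (27.5%) and 3 in VCAP (10.6%). NPY, a peptide hormone carried in dense-core vesicles, was at 490 and 402 TPM in VCAP, 9.79 and 13.9 TPM in DUCAP and listed at 0 in the other 6 samples. NPY shared with CHGA and CHGB the order of VCAP far above DUCAP, with a log2 difference of 5.13 (SE 0.19, limma adjusted p = 2.8e-06). GRPR, the bombesin receptor, was highest in PC3 at 41.4 and 49.4 TPM. RAMP1, a receptor partner, was at 178 and 201 TPM in PC3 and 154 and 166 TPM in LNCaP. GAL, the galanin precursor, was highest in DU145 at 21.7 and 62.9 TPM, with the repeats far apart.

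The Notch pathway restrains neuroendocrine fate in many epithelia. Of 11 genes, 9 were tested and all differed (background 90.8%), 5 highest in PC3 (27.5%) and 4 in LNCaP (24.6%). None was highest in DUCAP (4.65%) or VCAP (10.6%), where these shares are small for all tested genes too. HES1, the main target, was at 52.5 and 19.5 TPM in DU145 and 35.2 and 86.6 TPM in PC3, 2.44 and 2.17 TPM in LNCaP, and at most 0.58 TPM in DUCAP and VCAP. The ligand JAG1 was highest in PC3 at 50.1 and 61.8 TPM, and JAG2 in LNCaP at 43.3 and 39.9 TPM. NOTCH2 was at 26.6 and 24.1 TPM in PC3, 22.51 and 23.87 TPM in VCAP, and 17.85 and 22.25 TPM in DUCAP. It was at 10.63 and 10.85 TPM in LNCaP and lowest in DU145 at 8.35 and 8.10 TPM. No gene of the list was higher and 5 of 9 were lower in the group contrast, where 51.9% of all tested genes were lower, with a median of −0.90 beside −0.40 over all tested genes.

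The pluripotency genes around SOX2 were low. Of the 8 listed, 3 were tested and all differed across lines (background 90.8%). KLF4 was highest in PC3 at 18.0 and 13.1 TPM, SALL4 in DU145 at 5.16 and 2.54 TPM, and POU5F1 in DUCAP at 1.63 and 2.93 TPM. None of the 3 was highest in VCAP, but only 10.6% of all tested genes were called and highest there, so this count says little.

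The labelled lines were checked with markers of epithelium and of other cells. Keratins KRT8 and KRT18 were at 98.95 TPM or more in all samples, whereas the basal genes KRT5 and TP63 stayed below 1 TPM. The secreted luminal protease KLK2 was at 180 to 8172 TPM in LNCaP, DUCAP and VCAP and at most 0.19 TPM in DU145 and PC3. KLK3 was at 2625 and 2583 TPM in DUCAP but at 45.2 and 28.3 TPM in VCAP, the line with the highest granins, so KLK2 and KLK3 went opposite ways between these lines. Defining markers of leukocytes (PTPRC, LYZ) and endothelium (PECAM1, CDH5) did not reach 1 TPM in any sample, nor did the fibroblast genes DCN and PDGFRB. Other genes of those lists were not at 0: LUM was at 5.35 and 5.12 TPM in VCAP, CD68 reached 101 TPM in DU145, COL1A1 was at 31.51 and 38.02 TPM in PC3, and VWF was at 5.45 and 4.22 TPM in LNCaP. Of these, LUM and the basal keratin KRT14 (4.56 and 3.25 TPM in VCAP, at most 0.83 TPM elsewhere) were highest where the granins were. The summed TPM of the 5 fibroblast genes was 7.09 and 7.11 in VCAP, 1.08 and 1.99 in DUCAP, 7.36 and 7.84 in LNCaP, 4.92 and 1.47 in DU145, and 36.3 and 47.6 in PC3, so the list as a whole did not follow the granins. That of the 3 basal genes was 4.56 and 3.25 in VCAP and at most 0.83 in the other samples, all of it KRT14 in VCAP, and its part in the VCAP values was not tested.

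For each tested marker the 2 genes with the most similar profile over the 10 samples were listed by Pearson's r of log2(TPM + 1). The samples are 5 pairs of repeats, so r describes these profiles and carries no test. CHGB was followed most closely by CHRNB2 (r = 0.9994), a nicotinic receptor subunit, and AGTR1 (0.9989), an angiotensin receptor. CHGA was followed by CRMP1 (0.9981) and EMILIN3 (0.998), NCAM1 by ANKRD34C-AS1 (0.9941) and NRSN1 (0.994), and SCG2 by ALPL (0.9924) and SOSTDC1 (0.9907). The nearest profiles were IGSF21 (0.9996) and ENOX1-AS2 (0.9993) for INSM1, AL590064.1 (0.9932) and APELA (0.9922) for SYP, BCOR (0.9835) and ZNF608 (0.9833) for ONECUT2, and AL772307.1 (0.9909) and FBLIM1 (0.99) for ENO2. Among the markers themselves r was 0.997 between CHGA and CHGB, 0.984 between CHGA and SCG2 and 0.987 between CHGB and NCAM1. It was 0.846 between INSM1 and ONECUT2 and 0.479 between NCAM1 and INSM1. For SYP, r was 0.946 with CHGA, 0.944 with SCG2, 0.93 with CHGB and 0.872 with NCAM1. It was 0.889 between SYP and ONECUT2 and 0.813 between SYP and INSM1, so SYP also rose with the granins. ENO2 had negative values with all 7 other tested markers, from −0.405 to −0.697. The panel thus did not vary as 1 unit over these lines: the granins and NCAM1 went with VCAP, INSM1 with the DUCAP and VCAP pair, ONECUT2 and SYP were graded, and ENO2 was highest in PC3 and DU145.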

How the data were processed

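Untreated cells of 5 prostate cancer lines (2 biological repeats each) were profiled by polyA-enriched, strand-specific bulk RNA-seq. Groups and repeat numbers came from the deposited labels. The authors deposited TPM per gene symbol. Per the labels' processing notes, FastQC 0.11.9, Trim Galore 0.6.5, STAR 2.7.2b and RSEM 1.3.3 were used with GRCh38. How rows that share a symbol were merged is not given in the sources used here, and no scaling between samples is stated. TPM are shares, so a gene's value also falls when others, such as mitochondrial genes, take more.

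TPM keep no depth, so no counting interval or detection floor was computed, and precision rests on 2 repeats per line. The 17520 genes that reached 1 TPM in 2 or more samples were fitted on log2(TPM + 1) by limma 3.58.1 in R 4.3.3. The model had a mean for each line over all 10 samples and a trended prior variance, and p-values were adjusted by Benjamini-Hochberg with a threshold of 0.05. The moderated F test compared the 5 lines. Contrasts compared the 10 pairs of lines, and the mean of LNCaP, DUCAP and VCAP with that of DU145 and PC3. The fit was tested on simulated data.

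The members and the gene lists were chosen with earlier results of these data known. Named genes were all members, REST, RCOR1, RCOR2, SRRM4, NEUROD1, ENO1 and ENO3, up to 4 called genes per list with the highest TPM, any list gene at 100 TPM or more, and the 2 nearest profiles of each tested member. SCG5, PCSK1, PCSK2, SOX2-OT and the markers of other cells are named beside these, after their values were seen. Some genes that the rule or the marker lists name are not reported here. Coordinates of 9 of 9 members and promoters of 5 of 9 came from RefSeq (GRCh38.p14). Motifs were searched on both strands as exact letters. Alternatives were another pseudocount (0.1), filters, scalings, variance prior, the repeat number as a covariate and each sample left out. Summaries were made in Python 3.11.15 (pandas 2.3.3, numpy 2.4.6) and figures in matplotlib 3.10.9.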

Additional observations from a re-analysis of the deposited data

Results flagged for a closer look

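Among the pooled samples of the 4 DU145 and PC3 cultures, INSM1 was at 0.02 TPM in PC3 repeat 2 and at 0 in the other 3, which put this sample apart by Dixon's criterion. SOX2 was at 0 TPM in DU145 repeat 1 and at 0.02 TPM in the other 3. Both groups pool different lines, and both values are at the lower end of what the table lists. These were 2 of 17 groups with any spread, where chance at 1 in 20 would give 0.85.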

How the results depend on the processing

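The 8 tested members stayed called across the lines and in the group contrast with a pseudocount of 0.1, median-ratio scaling, quantile normalization, rescaling without mitochondrial genes and no trend in the prior variance, with 54 to 57 calls over the pairs of lines in place of 55. A filter on the mean gave 7, 7 and 49, and no filter 9, 8 and 56. With single samples left out, the counts ranged from 4 to 8 across lines, from 4 to 8 in the group contrast, and from 30 to 54 over the pairs. The low values came from leaving out either VCAP sample, after which CHGA, CHGB, NCAM1 and SCG2 fell below the filter and 4 members were tested. With the same genes tested, an alternative chosen after seeing the data, the counts were 8, 8 and 54. No result reversed its direction. A replicate block on the repeat number gave 8, 8 and 56 and changed no call across lines or in the group contrast of a member. The labels do not tie the numbers to a shared day, and the deviations of same-numbered samples had a mean correlation of 0.00922 over 10 pairs of lines (−0.191 to 0.249), so the numbers were not taken as pairs. The median log2 difference of all tested genes in the group contrast was −0.40, and it was −0.02 after median-ratio scaling, 0.07 after quantile normalization and −0.20 without mitochondrial genes, when 6092, 6825 and 5196 genes were called higher in place of 3940. The order of the 5 lines by ENO2 share was the same by the ratio of ENO2 to ENO1 (5 of 5). Depth limits are unknown, since TPM hold none.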
